A study of Homo sapiens with 6 samples.

Results

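Integrins are the receptors by which cells grip the extracellular matrix, and focal adhesion adaptors are the proteins that couple their cytoplasmic tails to actin and to kinase signalling. Integrin chains were taken as the genes whose symbol is ITGA or ITGB followed by a chain number or by one of the chain letters L, M, V, X and E, and 25 adaptor genes were listed by name. In all, 39 genes of the 16258 measured were described: 8 alpha chains, 7 beta chains and 24 adaptors. Measured here means having deposited values. The lowest mean over the 6 samples among these genes was 8.09 normalised reads, so genes with a lower mean are not among them. The adaptor PARVB was not analysed here. ITGBL1 also fits the symbol pattern, but it encodes a secreted beta-like protein and no receptor chain, so it was left out of the 39 and is described separately. All 39 members passed the filter on low values, a mean of at least 10 normalised reads over the 6 samples.

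The cells were MDA-MB-231, an established human line from a triple-negative breast cancer. The migratory group held highly motile cells isolated from microfluidic devices. The unsorted group held the population that they were compared with, and no treatment or genetic change sets the groups apart in the labels. Each group had 3 samples of 1000 cells, and whether these were separate cultures is not stated, so the p-values reflect the scatter among 6 libraries, part of which may be technical.

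An integrin is a pair of 1 alpha and 1 beta chain. Talin and kindlin bind the beta tail and switch the receptor on, vinculin strengthens the link from talin to actin, and the complex of ILK, PINCH and parvin forms a further bridge to actin. FAK (PTK2) and SRC phosphorylate paxillin and the CAS scaffolds, which recruit CRK and GIT proteins and pass the signal to small GTPases that drive protrusion and the turnover of adhesions. In MDA-MB-231 cells, beta 1 integrins and FAK are well known for their part in movement through matrix.

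The libraries held 27032454 to 34511537 reads in the migratory group and 32789072 to 74227978 reads in the unsorted group. Values below are normalised read counts, that is, reads per gene divided by 1 size factor per library, and a group's 3 values stand in the order of replicates 1, 2 and 3. A value of 0 in unsorted replicate 3 allows up to 2.45 normalised reads (3 reads, counting error only). VIM, AXL, CD44 and MSN, which mark this line, summed to 95929 to 116330 in migratory and 66113 to 82410 in unsorted cells, and the epithelial cadherin CDH1 was between 0 and 28.3 in every library. EPCAM, an epithelial adhesion molecule listed as low in this line, was not at 0, with 2385, 2048 and 1512 in migratory cells, against 3089, 1734 and 2055 in unsorted cells. Of 8 blood cell markers 2 were measured, with summed levels of 28.5 to 112 in migratory and 307 to 411 in unsorted cells, most of it CD14. Of 5 endothelial markers 3 were measured, at sums of 640.2 to 976 in migratory and 1297 to 1878 in unsorted cells. By gene, PECAM1 and TEK had negative log2 fold changes, -1.01 and -1.36, and KDR a positive one of 2.10. Fibroblast markers, 5 of 7 measured, summed to 818 to 2111 in migratory and 2772 to 4183 in unsorted cells, and the part of any of these in the results below was not tested. In bulk RNA, fewer cells of a type and less RNA per cell cannot be told apart.

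None of the 39 members differed between migratory and unsorted cells past an adjusted p of 0.05 in limma with Benjamini-Hochberg adjustment over 15786 genes, of which 0.234% passed. Of the 24 adaptors 17 had positive log2 fold changes, and of the 15 integrin chains 8. The PINCH adaptor LIMS1 (log2 fold change 1.15) and the collagen receptor chain ITGA10 (-1.93) came nearest to the threshold, with limma adjusted p of 0.080 and 0.075. The quasi-likelihood test of edgeR on the whole reads also called 0 members, with adjusted p of 0.088 for LIMS1 and 0.088 for ITGA10. DESeq2 called 3, LIMS1 as higher and ITGA10 and NEDD9 as lower, with adjusted p of 5.6e-04, 4.8e-04 and 0.046, where it called 5.91% of all genes.

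At an unadjusted limma p under 0.05 there were 6 members, 4 higher and 2 lower in migratory cells. The higher ones were LIMS1, FERMT1, LPP and TLN1, or 10.3% of members beside 7.7% of all genes tested. ITGA10 and NEDD9 were the lower ones, 5.13% beside 10.0% of all genes tested. The 3 migratory values all lay above the 3 unsorted values for 5 members, 12.8% beside 11.3% of all genes, and all below for 2 members, 5.13% beside 12.5%. The shares of higher members are near the background and those of lower members under it, and nothing particular to the family is read from them. The median log2 fold change was 0.26 over the 39 members and -0.026 over all genes tested, and 25 members, 64.1%, had a positive value, beside 48.1% of all genes. By role the median was 0.36 over the 24 adaptors, 0.11 over the 8 alpha chains and -0.20 over the 7 beta chains. The sign of the beta median was not stable, at 0.068 with edgeR, 0.086 with DESeq2, 0.026 without migratory replicate 1 and 0.10 without migratory replicate 3. The alpha median was -0.089 without unsorted replicate 3, and 0.034 or 0.035 without migratory replicate 3 or unsorted replicate 1, and the adaptor median ran between 0.20 and 0.61 with 1 library left out. Without unsorted replicate 1 the median of the 39 was 0.046, without migratory replicate 2 it was 0.11, and without migratory replicate 1 it was 0.39. The count at an unadjusted p under 0.05 was 15 without migratory replicate 1, 38.5% of members beside 16.4% of all genes in that fit. It was 14 without unsorted replicate 2, 35.9% beside 18.9%. It was 7 without migratory replicate 2, 4 without migratory replicate 3, 7 without unsorted replicate 1 and 6 without unsorted replicate 3. These are 10.3% to 17.9% of members. The share of all genes in these fits was not computed, so nothing is read from these counts.

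**Figure D1:**
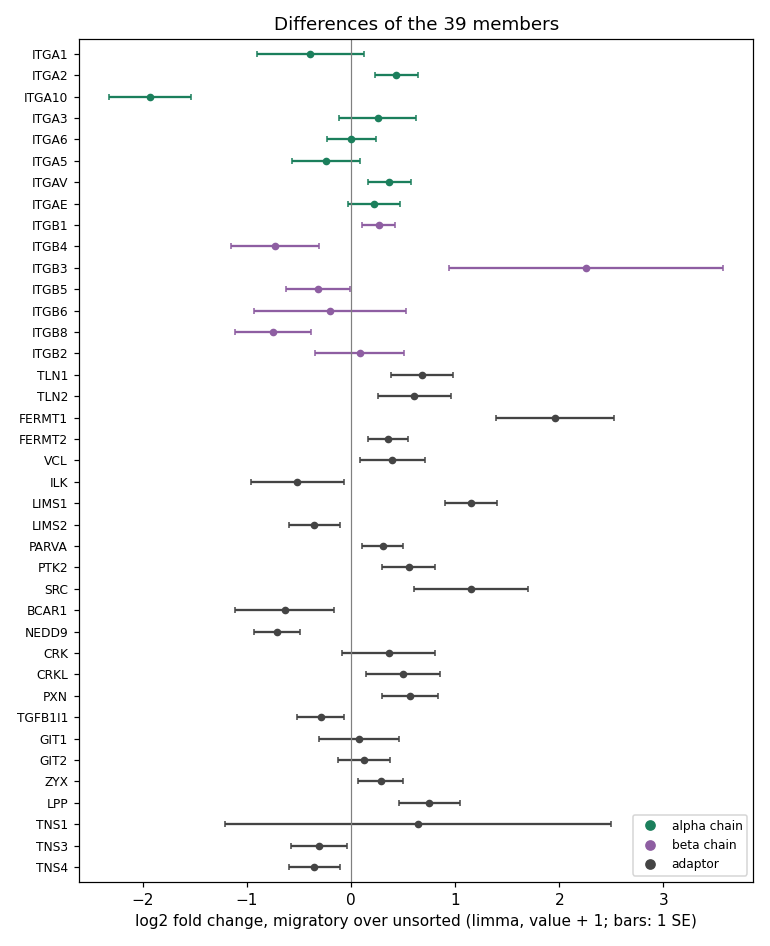
Log2 fold changes of the 39 members (x axis, migratory over unsorted, limma on log2 of the normalised read count + 1), 1 row per gene from alpha chains at the top through beta chains to adaptors, with bars of 1 SE. LIMS1 at 1.15 and ITGA10 at -1.93 stand farthest from 0 relative to their bars, and the wide bars of ITGB3 and TNS1 belong to genes with few reads.

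Among the collagen-binding alpha chains, ITGA10 had the lower and ITGA2 the higher mean in migratory cells, and neither passed the test over all genes. ITGA10 (alpha 10, known mainly from cartilage; chromosome 1, 145891208 to 145910189 on GRCh38) had 93.7, 250.4 and 173 in migratory cells, against 513, 811 and 550.4 in unsorted cells. Every migratory library lay below every unsorted one, and the lowest value was in migratory replicate 1. Its log2 fold change was -1.93 (SE 0.39, limma adjusted p = 0.075), and it was between -2.25 and -1.55 with any 1 library left out. With a GC and length trend removed from each library the value was -1.80, adjusted p = 0.033 in limma. ITGA2, the alpha 2 chain of the main collagen receptor of epithelial cells (chromosome 5, 52989326 to 53094779), had 6107, 8107 and 8624 in migratory cells, against 4677, 5579 and 6643 in unsorted cells. Only unsorted replicate 3 reached into the migratory range, above migratory replicate 1, and the log2 fold change was 0.43 (SE 0.21, limma adjusted p = 0.31). ITGA1, the third collagen-binding chain, averaged 218 ± 136 in migratory and 257 ± 87.9 in unsorted cells (SD, n = 3 each), and its groups overlapped.

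Promoter sequences are shown for the members that came nearest to the threshold in either direction, to set their starts side by side. Each is the stretch of 250 bases before the RefSeq start site on GRCh38.p14, 5′ to 3′ on the gene's own strand, for LIMS1 at chr2:108534220-108534469, plus strand (the first of several listed starts), and for ITGA10 at chr1:145910051-145910300, minus strand. Capitals mark matches on either strand to GGGCGG (the SP1 box) and GGAATG (the core bound by TEAD factors), which do not overlap each other here.
LIMS1: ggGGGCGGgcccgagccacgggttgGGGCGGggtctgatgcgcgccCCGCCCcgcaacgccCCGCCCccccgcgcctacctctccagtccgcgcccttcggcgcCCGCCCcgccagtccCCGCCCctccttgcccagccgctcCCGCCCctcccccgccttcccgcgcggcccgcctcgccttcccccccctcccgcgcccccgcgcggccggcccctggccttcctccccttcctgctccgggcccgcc
ITGA10: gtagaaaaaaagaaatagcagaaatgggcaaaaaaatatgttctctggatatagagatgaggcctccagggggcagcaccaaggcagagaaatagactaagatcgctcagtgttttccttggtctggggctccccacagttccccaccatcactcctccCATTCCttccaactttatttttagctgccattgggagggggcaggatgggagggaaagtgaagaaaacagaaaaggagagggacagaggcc
The LIMS1 stretch held 7 matches to GGGCGG and none to GGAATG, while that of ITGA10 held 1 match to GGAATG, on the opposite strand, and none to GGGCGG. Neither held TGANTCA (the AP-1 site) or a CArG box. Among 30 members with an entry in the promoter table, taking 1 start per gene and over the whole windows of that table, which also run a short way past the start, 17 held GGGCGG, 56.7%, beside 44.6% of all 27305 promoters. For GGAATG it was 4 members, 13.3% beside 14.05%, and for TGANTCA 3 members, 10.0% beside 7.76%. A CArG box was found for 1 member, ITGB6, 3.33% beside 1.29%. A match describes letters in the window and no binding.

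Laminin and RGD receptors showed little difference between the groups, and 1 of their 4 alpha chains, ITGAV, had groups that did not overlap. ITGAV (alpha V, which pairs with several beta chains to bind vitronectin and fibronectin; chromosome 2, 186590065 to 186680901) had 1205, 1319.5 and 1161 in migratory cells, against 923, 987 and 944 in unsorted cells. All 3 migratory libraries were above all 3 unsorted ones, with narrow spreads, yet the log2 fold change was 0.37 (SE 0.21, limma adjusted p = 0.38). The fibronectin receptor chain ITGA5 (chromosome 12, 54395261 to 54419460) had 6040.1, 17355 and 10225 in migratory cells, against 11635, 14421 and 10458 in unsorted cells. Migratory replicates 1 and 2 were the lowest and the highest of all 6 libraries, so the difference between groups, -0.24 (SE 0.33, limma adjusted p = 0.74), was smaller than the spread among migratory samples, and its sign turned to 0.14 without migratory replicate 1. For ITGA3, a laminin receptor chain (chromosome 17, 50055968 to 50090481), the values were 3683, 7586 and 5434 in migratory cells, against 3495, 8045 and 3166 in unsorted cells. Unsorted replicate 2 was the highest of all, the groups overlapped, and the log2 fold change was 0.26 (SE 0.37, limma adjusted p = 0.75). It was 0.0026 without migratory replicate 2, 0.0087 without unsorted replicate 3 and 0.68 without unsorted replicate 2. ITGA6, the laminin-binding partner of beta 1 and beta 4 (chromosome 2, 172427354 to 172506282), had 5734, 6503 and 7815 in migratory cells, against 6486, 9015 and 4949 in unsorted cells. Its groups overlapped and its log2 fold change was 0.0034 (SE 0.24, limma adjusted p = 1.00), with a sign that turned under both count tests and other scalings. ITGAE, the E-cadherin-binding chain best known from lymphocytes in epithelium, averaged 2994 ± 739 in migratory and 2547 ± 469 in unsorted cells (SD, n = 3 each), and part of its exons, 6.41%, overlaps HASPIN on the other strand.

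ITGB1, the beta chain shared by most of these alpha chains, was the most abundant integrin transcript, and none of the 7 beta chains separated the groups. ITGB1 (chromosome 10, 32900319 to 33005792) had 36527, 46651 and 42874 in migratory cells, against 33192, 39905 and 31769 in unsorted cells. Unsorted replicate 2 lay above migratory replicate 1, so the groups overlapped, and the log2 fold change was 0.27 (SE 0.16, limma adjusted p = 0.40). Its pseudogene row ITGB1P1 averaged 1329 ± 229 in migratory and 1121 ± 170.4 in unsorted cells, and the counting of reads that match both rows is not described in the sources used here. ITGB5, an alpha V partner for vitronectin (chromosome 3, 124761948 to 124901418), had 7140.3, 14004 and 15223 in migratory cells, against 12457, 20179 and 11722 in unsorted cells. Migratory replicate 1 was lowest and unsorted replicate 2 highest, the log2 fold change was -0.32 (SE 0.31, limma adjusted p = 0.61), and it was 0.026 without migratory replicate 1. ITGB4, the hemidesmosome chain that pairs with alpha 6 (chromosome 17, 75721328 to 75757818), had 1394, 3561 and 1379.6 in migratory cells, against 3993, 4286 and 1832 in unsorted cells. Migratory replicates 1 and 3 were low, but so was unsorted replicate 3, and the log2 fold change was -0.73 (SE 0.42, limma adjusted p = 0.39).

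ITGB8, an alpha V partner that releases active TGF-beta from its latent complex (chromosome 7, 20330702 to 20415754), had 223, 502 and 417 in migratory cells, against 430.5, 683 and 758 in unsorted cells. Migratory replicate 2 lay above unsorted replicate 1, which made the groups overlap, and the log2 fold change was -0.75 (SE 0.36, limma adjusted p = 0.31). ITGB3, the alpha V partner of the vitronectin receptor (chromosome 17, 47253846 to 47311816), had low counts. They were 23, 82 and 33 reads in migratory libraries, against 20, 104 and 0 reads in unsorted libraries. No read was found in unsorted replicate 3 and the highest normalised value, 117, was in migratory replicate 2, so the log2 fold change of 2.25 (SE 1.32, limma adjusted p = 0.39) rests on few reads. Over this gene 51.6% of the exon length is shared with another annotated gene on the same strand, which leaves its value uncertain. ITGB6 averaged 74.7 ± 77.0 in migratory and 66.3 ± 36.6 in unsorted cells and the leukocyte chain ITGB2 245 ± 109 in migratory and 229.9 ± 105 in unsorted cells (SD, n = 3 each), and the groups of both overlapped.

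**Figure D2:**
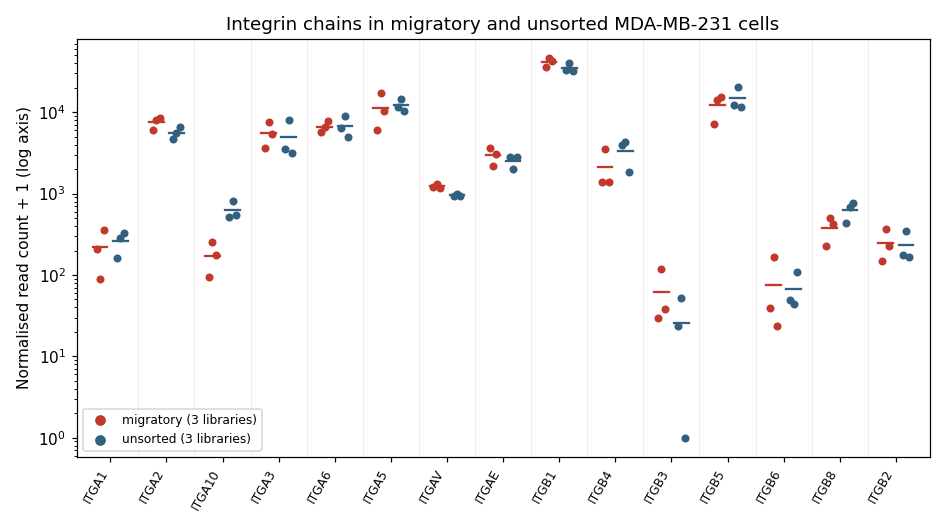
Normalised read count + 1 (log axis) of the 15 integrin chains in each library, migratory (red) left of unsorted (blue) for each gene, with horizontal lines at the group means. The groups are apart for ITGA10, lower in migratory cells, and for ITGAV, higher in migratory cells, and overlap for the other 13.

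Levels of different chains were compared per kilobase of exon, as the mean ± SD over all 6 libraries. ITGB1 stood at 6403 ± 955 normalised reads per kb, above ITGB5 at 2087 ± 667 and ITGB4 at 405 ± 199.8. The other beta chains were at 34.9 (ITGB2), 33.2 (ITGB8), 15.0 (ITGB6) and 9.75 (ITGB3). Among alpha chains ITGA5 was at 1543 ± 512, ITGA6 at 1033 ± 224, ITGA2 at 837 ± 190.5, ITGA3 at 534 ± 219.7 and ITGAE at 416 ± 90.9 per kb. The mean ± SD ranges of neighbours in that order overlapped. ITGAV followed at 133 ± 19.7, then ITGA10 at 63.1 ± 43.2 and ITGA1 at 12.8 ± 5.62. ITGA10 averaged 27.3 per kb in migratory and 98.9 in unsorted cells, and ITGAV 149.6 in migratory and 116 in unsorted cells, and in unsorted replicate 2 ITGA10 at 128 was above ITGAV at 120.2. ITGB1 made up 81.7%, 73.2% and 73.0% of the summed beta chains per kb in migratory cells, against 68.1%, 63.1% and 70.7% in unsorted cells. Each migratory share was above each unsorted one, the largest being in migratory replicate 1, where ITGB5 and ITGB4 were low. ITGB1 has 40.9% GC, ITGB5 54.6% and ITGB4 62.9%, and the part of GC content in this share was not tested. The share itself was not tested either. Among summed alpha chains, the shares of ITGA5, of ITGA2 and of the collagen, laminin and RGD receptor chains overlapped between the groups. Summed beta chains per kb were 1.89 to 2.10 times the summed alpha chains in migratory and 1.90 to 1.98 times in unsorted cells.

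All 5 talin, kindlin and vinculin genes had positive log2 fold changes, with a median of 0.61, and none passed the test over all genes. TLN1, talin 1, the protein that opens the integrin and links it to actin (chromosome 9, 35696948 to 35732395), had 6682, 12335 and 8676 in migratory cells, against 6669, 7071 and 3680.2 in unsorted cells. Migratory replicate 1 was within the unsorted range and replicates 2 and 3 above it, with a log2 fold change of 0.68 (SE 0.30, limma adjusted p = 0.27). TLN2, the less abundant talin, had 170.2, 322 and 275 in migratory cells, against 170.1, 131 and 189 in unsorted cells. Again migratory replicate 1 lay within the unsorted range, and the log2 fold change was 0.61 (SE 0.35, limma adjusted p = 0.39). VCL, vinculin (chromosome 10, 73995193 to 74121363), had 7034, 15133 and 11325 in migratory cells, against 7773, 11556 and 5886 in unsorted cells. Its groups overlapped through migratory replicate 1 and unsorted replicate 2, the log2 fold change was 0.40 (SE 0.31, limma adjusted p = 0.53), and 11.1% of its exon length overlaps AP3M1 on the other strand.

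FERMT1, kindlin 1, the epithelial kindlin (chromosome 20, 6074845 to 6123544), had 153, 245 and 225 in migratory cells, against 21.7, 56.2 and 111 in unsorted cells. All migratory libraries were above all unsorted ones, though from low levels (124, 171 and 197 reads in migratory libraries, against 19, 115 and 136 reads in unsorted libraries), and the log2 fold change was 1.96 (SE 0.56, limma adjusted p = 0.13). FERMT2, kindlin 2, the widely expressed form (chromosome 14, 52857268 to 52952435), had 2569, 3211 and 3255 in migratory cells, against 2261, 2557 and 2218 in unsorted cells. Here too the groups did not overlap, but migratory replicate 1 exceeded unsorted replicate 2 by little, and the log2 fold change was 0.36 (SE 0.20, limma adjusted p = 0.37).

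In the ILK, PINCH and parvin complex LIMS1 was higher and LIMS2 lower in mean in migratory cells. LIMS1, which encodes PINCH1, the LIM-domain partner of ILK (chromosome 2, 108534355 to 108687246), had 1792, 1860.5 and 1275 in migratory cells, against 863, 692 and 647 in unsorted cells. Every migratory library exceeded every unsorted one, the mean was 2.24 times as high, and the log2 fold change of 1.15 (SE 0.25, limma adjusted p = 0.080) stayed between 1.05 and 1.32 with any 1 library left out. Near-identical LIMS1 copies exist in the genome, and the counting of reads that match several of them is not described in the sources used here, so its level is uncertain. LIMS2, which encodes PINCH2, averaged 858 ± 131 in migratory and 1099.7 ± 197 in unsorted cells (SD, n = 3 each), with groups that overlapped and a log2 fold change of -0.35 (SE 0.24, limma adjusted p = 0.47). With a GC and length trend removed from each library its value was 0.073, where the median of all genes was 0.12. PARVA, alpha-parvin, the actin-binding partner of ILK (chromosome 11, 12377185 to 12535356), had 4208, 5102 and 4906 in migratory cells, against 3405, 4672 and 3523 in unsorted cells. Unsorted replicate 2 lay inside the migratory range and the log2 fold change was 0.30 (SE 0.20, limma adjusted p = 0.45).

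ILK itself (chromosome 11, 6603708 to 6610874) was listed at only 72.8, 42.9 and 38.8 in migratory cells, against 78.8, 71.3 and 64.4 in unsorted cells. The groups overlapped, with a log2 fold change of -0.52 (SE 0.45, limma adjusted p = 0.57). Of its exon length 78.5% overlaps other genes, and 68.1% overlaps TAF10 on the other strand. These libraries do not mark strand, so reads of the pair cannot be told apart. TAF10 averaged 2970.3 ± 785 in migratory and 3589.8 ± 534 in unsorted cells (SD, n = 3 each). The level of ILK is therefore uncertain.

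The kinases of the adhesion had higher means in migratory cells and the CAS scaffolds lower ones, without passing the test over all genes. PTK2, the focal adhesion kinase FAK, had 4659, 6279.8 and 6583 in migratory cells, against 3221, 5627 and 3369.5 in unsorted cells. Unsorted replicate 2 lay above migratory replicate 1, and the log2 fold change was 0.55 (SE 0.25, limma adjusted p = 0.29). SRC, the tyrosine kinase that binds activated FAK (chromosome 20, 37344685 to 37406050), had 475, 587 and 485 in migratory cells, against 362, 416 and 80.7 in unsorted cells. The groups did not overlap, but unsorted replicate 3 lay far below the other two, and the log2 fold change of 1.15 (SE 0.55, limma adjusted p = 0.30) was 0.40 without it. NEDD9, a CAS scaffold phosphorylated by FAK and SRC (chromosome 6, 11183298 to 11382348), had 2290.5, 2897 and 2829 in migratory cells, against 4922, 5081 and 3299 in unsorted cells. All migratory libraries were below all unsorted ones, the closest being unsorted replicate 3, and the log2 fold change was -0.71 (SE 0.22, limma adjusted p = 0.16).

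BCAR1, the founding CAS scaffold p130Cas (chromosome 16, 75228187 to 75268053), had 1685, 6071 and 6636 in migratory cells, against 5638, 9173 and 4956 in unsorted cells. Migratory replicate 1 was far below the other 5 libraries, and the log2 fold change of -0.64 (SE 0.47, limma adjusted p = 0.50) was -0.0013 without it. CRKL, an SH2 and SH3 adaptor that binds CAS proteins, averaged 2364 ± 585 in migratory and 1803 ± 995 in unsorted cells, and its relative CRK 347 ± 181 in migratory and 267 ± 120.1 in unsorted cells (SD, n = 3 each). Both groups overlapped in both genes, with log2 fold changes of 0.50 and 0.36 (limma adjusted p of 0.49 and 0.70).

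PXN had the higher mean in migratory cells, and its relative TGFB1I1 the lower one. PXN, paxillin, the scaffold on which FAK, vinculin and CRK meet (chromosome 12, 120210439 to 120265771), had 5127, 9289.5 and 5611 in migratory cells, against 3617, 5836 and 3910.2 in unsorted cells. Migratory replicate 2 stood above the rest and unsorted replicate 2 lay inside the migratory range, with a log2 fold change of 0.56 (SE 0.27, limma adjusted p = 0.31). An antisense gene, PXN-AS1, covers 12.3% of its exons. TGFB1I1, the paxillin relative Hic-5, averaged 2708 ± 539.6 in migratory and 3297 ± 517 in unsorted cells (SD, n = 3 each), with a log2 fold change of -0.29 (SE 0.22, limma adjusted p = 0.52). Removal of the GC and length trend turned that value to 0.14, where the median of all genes was 0.12. GIT1 and GIT2, which bind paxillin and inactivate ARF GTPases, averaged 3235 ± 1546 in migratory and 2809.7 ± 669 in unsorted cells for GIT1 and 1611 ± 352 in migratory and 1474 ± 274 in unsorted cells for GIT2. The groups of TGFB1I1, GIT1 and GIT2 overlapped, and 22.1% of GIT2 exon length overlaps TCHP on the other strand.

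ZYX and LPP had higher means in migratory cells, and the tensins TNS3 and TNS4 lower ones. LPP, a zyxin relative at adhesions and cell contacts (chromosome 3, 188153284 to 188890671), had 1216, 2199.7 and 1639.5 in migratory cells, against 843, 1316 and 826 in unsorted cells. Unsorted replicate 2 lay above migratory replicate 1, and the log2 fold change was 0.75 (SE 0.29, limma adjusted p = 0.23). ZYX, zyxin, which recruits actin regulators to adhesions under tension (chromosome 7, 143381080 to 143391111), had 6065, 10223 and 8134 in migratory cells, against 5849, 6987 and 6815 in unsorted cells. Migratory replicate 1 lay within the unsorted range and the log2 fold change was 0.29 (SE 0.21, limma adjusted p = 0.51). TNS3 averaged 809 ± 127 in migratory and 1019 ± 270.3 in unsorted cells, and TNS4, a short tensin without the actin-binding part, 1937 ± 196 in migratory and 2532 ± 753 in unsorted cells (SD, n = 3 each). Both had overlapping groups, with log2 fold changes of -0.31 and -0.35. TNS1 had low counts, with 0, 32 and 68 reads in migratory libraries, against 0, 30 and 74 reads in unsorted libraries.

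**Figure D3:**
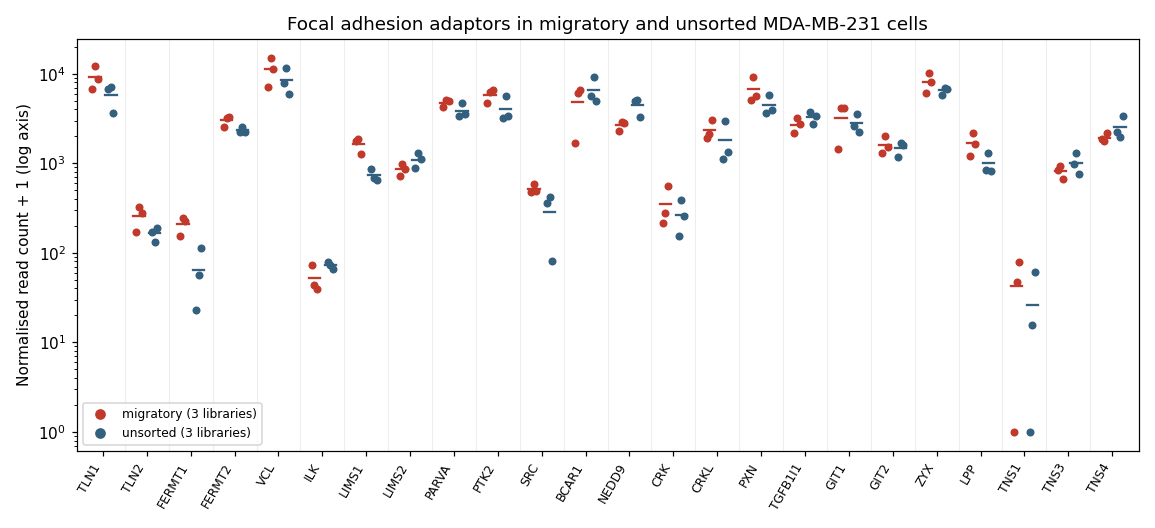
Normalised read count + 1 (log axis) of the 24 adaptors in each library, migratory (red) left of unsorted (blue) for each gene, with horizontal lines at the group means. LIMS1, FERMT1, FERMT2 and SRC have all migratory points above all unsorted ones, and NEDD9 all below.

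Within pairs of close relatives, the groups did not overlap in the PINCH and kindlin shares. LIMS1 took 71.2%, 65.4% and 59.6% in migratory cells, against 49.1%, 35.0% and 36.6% in unsorted cells of the normalised reads of LIMS1 and LIMS2. Per kb of exon the LIMS1 share averaged 67.4% in migratory and 42.3% in unsorted cells. LIMS1 has 44.5% GC and LIMS2 62.9%, and the part of GC content in this share was not tested. The exact two-sided permutation p was 0.10, the smallest that 3 against 3 samples allow, and 0.30 after Benjamini-Hochberg adjustment over 6 shares. FERMT2 took 94.4%, 92.9% and 93.5% in migratory cells, against 99.0%, 97.9% and 95.2% in unsorted cells of the normalised reads of FERMT1 and FERMT2. The groups did not overlap, with an exact permutation p of 0.10 and an adjusted p of 0.30. The kindlin FERMT3, described below, was not counted in this share. TLN1 took 97.5%, 97.5% and 96.9% in migratory cells, against 97.5%, 98.2% and 95.1% in unsorted cells of the talin reads, and the groups overlapped. Migratory minus unsorted mean shares were -0.32, -0.97 and -0.97 percentage points for TNS3 with TNS1 and TNS4, CRK with CRKL and GIT1 with GIT2. Each difference was less than the spread within groups. TNS2 was not counted in the tensin share. A share for the parvins was not computed.

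**Figure D4:**
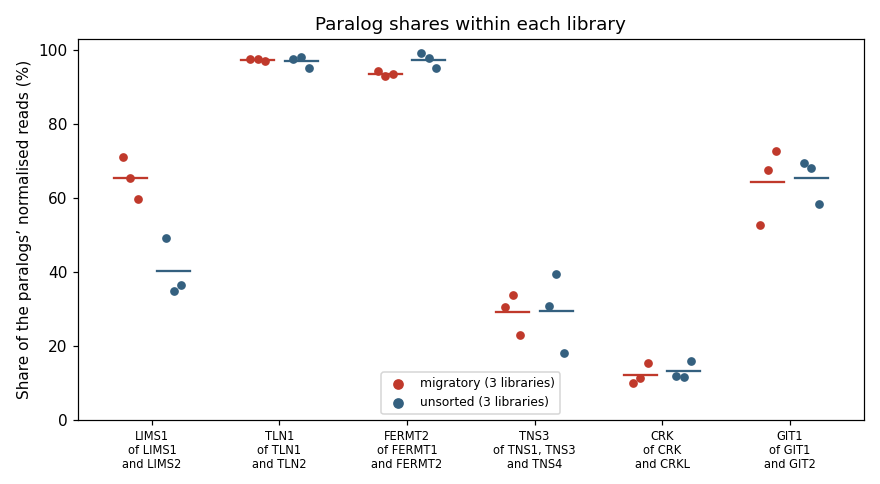
Share (%) taken by the first-named gene in the normalised reads of the genes named on the x axis, in each library. Migratory libraries (red) are left of unsorted ones (blue), with lines at the group means. LIMS1 lies between 59.6% and 71.2% in migratory and between 35.0% and 49.1% in unsorted libraries.

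Single libraries held the highest or lowest value of many members. Of the 39 members 18 had their highest value in migratory replicate 2, or 46.2% beside 15.0% of all genes tested, and 11 had their lowest value in migratory replicate 1, or 28.2% beside 24.2%. Here and below, ties were counted for the first library in order, with migratory libraries before unsorted ones. TNS1, at 0 in migratory replicate 1 and in unsorted replicate 1, was thus counted for migratory replicate 1. Unsorted replicates 1 and 3 each held the lowest value of 10 members, 25.6% beside 14.1% and 14.3%, and unsorted replicate 2 the highest of 9, 23.1% beside 16.3%. Migratory replicate 1 also deviated with base composition. Across 13686 genes its log2 deviation from the gene means had a Spearman rho of -0.33 with GC content, where the other libraries had -0.063 to 0.25. Across the 39 members, which share libraries and are not independent replicates, rho was -0.40 for migratory replicate 1, 0.33 for unsorted replicate 1 and 0.31 for unsorted replicate 2, and between -0.15 and 0.12 for the other libraries. Of the 20 members at or above the median GC content 9 had their lowest value in migratory replicate 1, among them BCAR1 with 65.3% GC, and of the 19 below it 2 did, ITGB8 with 41.1% and NEDD9 with 48.1%. ZYX with 63.9% had its lowest value in unsorted replicate 1.

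With a trend over GC content and exon length removed from each library, limma called 4 members, LIMS1, PXN and ZYX as higher and ITGA10 as lower, where it called 2.58% of 13686 genes. In that fit the log2 fold change was 1.12, adjusted p = 0.045 for LIMS1, 0.88, adjusted p = 0.047 for PXN and 0.85, adjusted p = 0.033 for ZYX. The median of all genes in it was 0.12, against which these are to be read, and the median of the 39 members was 0.29. Without migratory replicate 1 limma called 0 members, and the median of the 39 was 0.39.

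**Figure D5:**
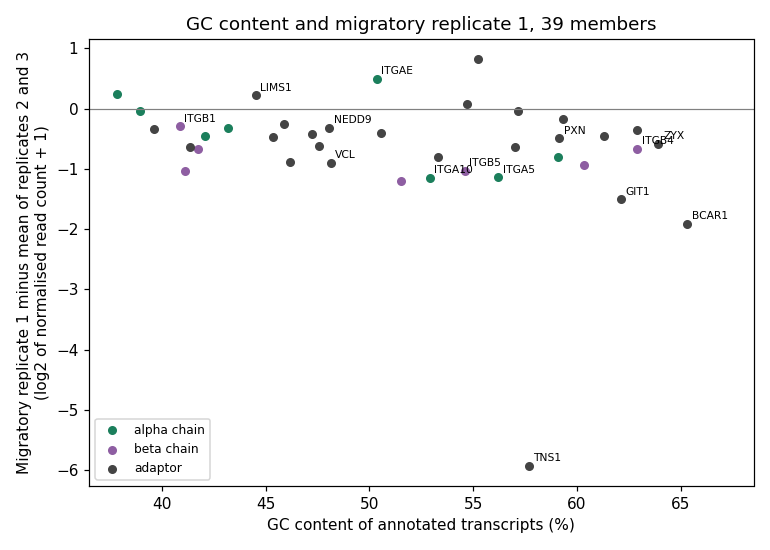
Log2 difference between migratory replicate 1 and the mean of migratory replicates 2 and 3 (y axis) against the GC content (%) of a gene's annotated transcripts (x axis), 1 point per member, coloured by role. The Spearman rho over the 39 points is -0.33, and the median difference is -0.74 for the 20 members at or above 51.5% GC and -0.41 for the 19 below. TNS1, the lowest point, had 0 reads in migratory replicate 1.

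Genes around the receptor were described from lists by role. Of 28 regulators of integrin activity, 0 passed the test over all genes and the median log2 fold change was 0.064. CAV1, caveolin 1, averaged 61817 ± 3879 in migratory and 44145 ± 3202 in unsorted cells, and SIPA1, which inactivates RAP1, 4165 ± 1162 in migratory and 5990.2 ± 362 in unsorted cells (SD, n = 3 each). FERMT3, the kindlin of blood cells, was at 9.87, 209 and 67.3 in migratory cells, against 4.57, 30.3 and 0 in unsorted cells, with groups that overlapped. Of 35 actin linkers and LIM proteins 0 passed, 26 had positive values and the median was 0.25. SORBS2 averaged 149.8 ± 17.8 in migratory and 398 ± 73.6 in unsorted cells, NEXN 1854 ± 147 in migratory and 1099 ± 130.3 in unsorted cells and the calponin CNN2 14509.8 ± 2577 in migratory and 9555 ± 639 in unsorted cells. Limma adjusted p were 0.080, 0.13 and 0.15.

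Of 37 adhesion kinases, exchange factors and their partners 0 passed, with a median of 0.15. The kinase ABL2 averaged 2449 ± 305 in migratory and 1219 ± 452 in unsorted cells, PAK2, a kinase downstream of RAC1 and CDC42, 2893 ± 440.1 in migratory and 1647 ± 313 in unsorted cells, and the GTPase RAC1 28376 ± 1996 in migratory and 21318 ± 1705 in unsorted cells. Among 19 negative regulators and phosphatases the median was 0.089 and 0 passed. PTPN11, the phosphatase SHP2, averaged 4297 ± 475 in migratory and 2646 ± 105 in unsorted cells, PTPN6 56.2 ± 53.6 in migratory and 188 ± 41.8 in unsorted cells, and PTPRA 1928 ± 469.8 in migratory and 2497 ± 393 in unsorted cells. Of 33 genes of integrin traffic 0 passed, with a median of 0.16. RAB21, which carries integrins from the membrane, averaged 3030.0 ± 303 in migratory and 1989 ± 160.0 in unsorted cells, RAB5C, an early endosome GTPase, 929 ± 313 in migratory and 462 ± 152 in unsorted cells, and PPFIBP1 871 ± 82.9 in migratory and 557 ± 136 in unsorted cells.

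Of 41 integrin ligands measured, 29 had negative log2 fold changes, 70.7% beside 51.9% of all genes tested, with a median of -0.47, and 1 fell past the test over all genes. That gene was ICAM1, a ligand of leukocyte integrins, at 2057 ± 501 in migratory and 6706 ± 600.3 in unsorted cells (SD, n = 3 each), with a limma adjusted p of 0.022. The call was lost, with 0 ligands called, without migratory replicate 3 or any 1 of the unsorted replicates, and the limma adjusted p lay between 0.027 and 0.14 with 1 library left out. LAMA5, a laminin chain bound by alpha 3 and alpha 6 integrins, averaged 1788 ± 249 in migratory and 3205 ± 378 in unsorted cells, and COL1A2, a collagen chain, 641 ± 399 in migratory and 1956 ± 818 in unsorted cells, with limma adjusted p of 0.10 and 0.12. Of the ligands tested 3, COL1A1, COL1A2 and COL3A1, are also on the fibroblast marker list, whose 5 measured genes all had negative values with a median of -1.04, and the part of such cells in the ligand values was not tested. DESeq2 called 13 genes over the 6 lists, among them SORBS2, NEXN, ABL2, PAK2, PTPN11, RAB21, ICAM1, LAMA5 and COL1A2. The lists held 28, 35, 37, 19, 33 and 41 tested genes, and DESeq2 called 5.91% of all genes. Nothing particular to the lists is read from that count. Whether ligands and adaptors differ from each other was not tested.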

How the data were processed

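Each of the 6 samples was 1000 MDA-MB-231 cells, with RNA amplified as full-length cDNA by SMART-seq, tagmented with Nextera XT and sequenced paired-end, per the labels' protocols. This chemistry does not mark strand and carries no molecular identifiers. The deposited values are a signal, reads per gene over 1 size factor per sample, not scaled for length. HISAT2, HTSeq and DESeq2 with builds hg38 and GRCh38.p7 are named in the submitters' processing notes, and no version, setting or gene annotation is given in the sources used here. All values (100%) were whole multiples of 1 read within 0.01 read, and these whole reads were used for count tests. Every column of sample values was mapped to a sample.

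The main test was limma 3.58.1 (R 4.3.3) with an intensity trend, on log2 of the deposited value + 1. On this scale changes of low genes depend on the added 1, and with a value of 0 in 1 library they can be larger than in a count model (ITGB3, 2.25 in limma and 1.27 in edgeR). It covered 15786 genes with a mean of at least 10, with two-sided Benjamini-Hochberg adjusted p-values across all genes and a threshold of 0.05. Alternatives were edgeR 4.0.16 and DESeq2 1.42.0 on whole reads, a pseudocount of 10, no filter, a filter at 50, TMM and upper-quartile scaling, a replicate block, leaving out each library, and removal of a spline trend over GC content and exon length. The limma script was checked on simulated data. Coordinates, exon lengths (union of exons), GC content and overlaps come from GENCODE release 29 on GRCh38, matched by symbol for 85.8% of genes and all 39 members, and promoters from RefSeq on GRCh38.p14. The submitters' annotation may differ.

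The members and lists were chosen with earlier results of these data known. Genes were given in full where they were among the 14 members with the smallest p and a mean of at least 50, or among 20 core members fixed by name, and up to 3 genes with the smallest p were named per related list.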

Additional observations from a re-analysis of the deposited data

How the results depend on the processing

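Low counts limit what can be read from ITGB3, ITGB6, ILK and TNS1, which had 146 reads or fewer in each library. ITGB3, ITGB6 and ILK also share 51.6%, 20.6% and 78.5% of their exon length with other genes, and the part of this in their counts was not tested. The count of members past an adjusted p of 0.05, 0 in limma as reported, was 0 with edgeR, a pseudocount of 10, no filter, a filter at 50, TMM scaling or any 1 library left out. It was 3 with DESeq2, 1 (ITGA10) with upper-quartile scaling, 1 (ITGA10) with the replicate block and 4 after removal of the GC and length trend. The cause was not tested, and the last of these fits covers 13686 genes. Over all genes the count, 37, was 21 with edgeR, 933 with DESeq2, 97 with a pseudocount of 10, 78 with a filter at 50, 85 with upper-quartile scaling, 114 with the replicate block, 353 after removal of the GC and length trend, and 1 to 44 with 1 library left out. Leaving out unsorted replicate 1 or 3 gave 1, unsorted replicate 2 gave 2, and migratory replicate 2 or 3 gave 15. In the related lists the count, 1, was 13 with DESeq2, 11 after removal of that trend, and 0 to 1 with 1 library left out. It was 0 without any 1 of the unsorted replicates or migratory replicate 3.

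Of the named members ITGA6, with a log2 fold change of 0.0034, turned to -0.043 with edgeR, -0.027 with DESeq2, -0.0091 with TMM, -0.030 with upper-quartile scaling and -0.014 after removal of that trend, and lay between -0.21 and 0.23 with 1 library left out. ITGA5 lay between -0.62 and 0.14 and ITGB5 between -0.52 and 0.026 with 1 library left out. The difference in the FERMT2 share, -3.76 percentage points, was -5.69 per kb of exon. The replicate numbers were not taken as pairs in the main test. Same-numbered samples deviated together at Pearson's r of 0.12, 0.11 and 0.037 (numbers 1, 2 and 3), and differently numbered ones at -0.16 to 0.072. Migratory replicates 1 and 2 correlated best with their own number, and migratory replicate 3 with unsorted replicate 2, at 0.072. These values do not settle whether the numbers mark pairs.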

Other observations

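Several relatives of the described genes lay outside the selection and are given as values, chosen after their values were seen. LPXN, leupaxin, the third member of the paxillin family, had 3312, 3526 and 4371 in migratory cells, against 1891, 2420.3 and 2248 in unsorted cells. Its groups did not overlap, and the log2 fold change was 0.77 (SE 0.20, limma adjusted p = 0.12). DESeq2 called it, with an adjusted p of 0.011, as did limma after removal of the GC and length trend, with an adjusted p of 0.0498, and edgeR did not, at 0.13. PTK2B, the FAK relative PYK2, had 72.8, 243 and 211 in migratory cells, against 359.7, 428 and 299 in unsorted cells. All migratory libraries were below all unsorted ones, with a log2 fold change of -1.20 (SE 0.45, limma adjusted p = 0.22). TNS2, a further tensin, averaged 359.7 ± 109 in migratory and 577 ± 108 in unsorted cells (SD, n = 3 each), with a log2 fold change of -0.71 (SE 0.30, limma adjusted p = 0.26).

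ITGBL1, the secreted beta-like protein that the symbol pattern also matched, had 229, 150.3 and 285 in migratory cells, against 104, 117 and 139 in unsorted cells. Its groups did not overlap, and the log2 fold change was 0.84 (SE 0.36, limma adjusted p = 0.26). ITGB1BP1, which encodes ICAP1, an inhibitor that binds the beta 1 tail, averaged 13954 ± 1567 in migratory and 12165 ± 1522 in unsorted cells (SD, n = 3 each), and its groups overlapped. ITGA2B, the platelet chain alpha IIb, had 0 reads in all 3 migratory libraries and in unsorted replicate 3, and normalised read counts of 25.1 and 44.0 in unsorted replicates 1 and 2.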
